A study of Mus musculus with 2 samples.

Results

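Resting oligodendrocyte precursor cells (OPCs) poor in ribosomal protein mRNA were 972 of the 13006 cell barcodes in the deposited matrices: 639 came from WT-CNO and 333 from DREADD-CNO. They were defined by UMI counts (counts of single captured mRNA molecules) in their own transcriptomes. Of the 8561 barcodes with at least 500 genes, at least 2000 UMIs and at most 10% mitochondrial UMIs, a resting OPC had at least 3 Pdgfra UMIs per 10000 and at least 2 UMIs of Olig1 and Olig2. It also had fewer than 3 UMIs per 10000 of Gpr17, fewer than 10 of the microglial C1q genes, and fewer than 8 each of a mitosis set (Mki67, Top2a, Cenpf, Ube2c, Birc5) and a replication set (Mcm3, Mcm5, Mcm6, Hells, Dtl, Lig1). These limits left 1570 resting OPCs. The 972 with under 3% of UMIs on genes whose symbols start with Rpl or Rps and a digit are called ribosomal-poor here, and the other 598 (210 and 388) ribosomal-rich. The Gpr17 limit removed the most cells that had passed for Pdgfra, 1631 of 2722 in WT-CNO and 1444 of 2399 in DREADD-CNO, so the members are the part of the OPCs with least Gpr17, an early marker of commitment.

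The cells came from cortex and corpus callosum of C57BL/6J pups at postnatal day 8, taken by magnetic beads for PDGFRα and O4. Every pup had received a virus on postnatal day 0 that carries the inhibitory receptor hM4D(Gi) with mCherry behind the neuronal hSyn promoter, in a form that only Cre switches on. All pups, of both groups, were dosed orally with clozapine-N-oxide (CNO), the drug that turns the receptor on, 2 times a day over postnatal days 2 to 8. The DREADD-CNO library was a pool of 3 pups with 1 Cre copy at Neurod6 (labelled Neurod6tm1(cre)Kan, also called NexCre+/-), and the WT-CNO library a pool of 2 wildtype pups, which carried no Cre. Neurod6, whose promoter drives Cre in excitatory neurons, had 0 UMIs in the members of both libraries, which allows up to 0.50 CPM in WT-CNO and 0.89 CPM in DREADD-CNO (CPM are UMIs of a gene, or of a list, scaled to a common total of all UMIs in the summed cells). With 1 library in each group no test between groups exists, and genotype, pups, sex mix and library cannot be told apart. All intervals are 95% intervals and cover counting error only.

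OPCs are the dividing, PDGFRA-bearing progenitors of the oligodendrocyte lineage, and in the early postnatal cortex they either divide, rest or commit to differentiation. Ribosomal proteins form the protein part of the ribosome, and their mRNAs are short, abundant in the cytoplasm and controlled together with those of translation factors. Long genes of neural cells, such as those of synaptic adhesion proteins and ion channels, give many intron-containing transcripts that stay in the nucleus, as does the long noncoding RNA Malat1.

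The 2 libraries held 78794300 and 108912581 UMIs, and the members 5994607 and 3355075 of these. Of 12 barcode sequences found in both libraries, 1 was a member in WT-CNO and 1 in DREADD-CNO, and 0 were members in both. By Xist and Y-linked UMIs, the WT-CNO members were 537 female, 71 male, 22 with both and 9 with neither, and the DREADD-CNO members 95 female, 203 male, 17 with both and 18 with neither. One WT-CNO member stood apart with 62673 UMIs, 2.85% ribosomal UMIs and 774 UMIs of myelin genes, and values that rest on it are given with and without it.

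On genes that the rule did not use, members were compared with microglia, which lie outside the lineage. This comparison cannot separate OPCs from committed precursors. Lhfpl3, a transmembrane protein gene that marks OPCs, was at 8508 CPM in WT-CNO and 8377 CPM in DREADD-CNO members, against 132 and 163 CPM in microglia of the same libraries (400 and 358 ribosomal-rich cells with at least 10 C1q and under 3 Pdgfra UMIs per 10000). Cspg4, the gene of the proteoglycan NG2, was at 528 and 525 CPM (microglia 11.6 and 7.27 CPM), and Tenm2, a teneurin that binds latrophilins across cell contacts, at 538 and 426 CPM (microglia 6.58 and 2.27 CPM). All 3 were therefore far above their level in microglia, in both libraries. The source of the microglial UMIs of these genes was not tested. With each cell thinned to 2000 UMIs, Lhfpl3 was found in 100% and 99.4% of members (microglia 17.5% and 14.8%). Cspg4 was then found in 64.3% and 63.1% of members, and in 2.00% and 1.96% of microglia. Tenm2 was found in 49.3% of WT-CNO members (45.4 to 53.2) and 41.7% of DREADD-CNO members (36.4 to 47.2), and in 1.25% and 0.279% of microglia. Unthinned, 75.3% and 66.4% of members had a Tenm2 UMI and 95.1% and 95.8% a Cspg4 UMI, at median depths of 8113 and 8409 UMIs against 17382 and 17634.5 in microglia.

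Of the marker lists of other cell types, some were near 0 in the members and others were not. The fibroblast list summed to 0.334 and 4.77 CPM, the endothelial list to 14.3 and 26.8 CPM, and the microglial list to 65.2 and 58.7 CPM. No WT-CNO member and 1 DREADD-CNO member held 10 or more UMIs of the fibroblast, pericyte and endothelial lists together. The astrocyte list summed to 850 and 943 CPM (microglia 58.9 and 103 CPM), and 182 of 639 and 125 of 333 members held 10 or more of its UMIs. Most of that sum was Slc1a3 (387 and 463 CPM) and Slc1a2 (219 and 210 CPM), glutamate transporters, while Gfap was at 0 and 0.596 CPM, Gja1 at 0 and 0.894 CPM and Aqp4 at 2.34 and 2.68 CPM. In all, 5 of 13 genes of the list were at 0 in WT-CNO and 3 in DREADD-CNO. The excitatory neuron list summed to 352 and 320 CPM (microglia 31.7 and 22.6 CPM), with 5 of 14 genes at 0 in each library, Slc17a7 and Neurod6 among them in both. The committed precursor list, which includes Gpr17, summed to 2743 and 2848 CPM in members. In ribosomal-poor committed precursors (defined below) it summed to 18482 and 19668 CPM. Of the members, 587 of 639 and 319 of 333 held 10 or more of its UMIs. The OPC identity list, which includes Pdgfra, Olig1 and Olig2 of the rule, summed to 39984 and 39693 CPM in members. In ribosomal-poor committed precursors it summed to 25868 and 23734 CPM. The part of these lists in the results was not tested. The ribosomal-rich cells used for comparison held 0 cells with 10 or more fibroblast, pericyte and endothelial UMIs in WT-CNO and 11 in DREADD-CNO. Cell cycle genes outside the rule were also lower in the members than in OPCs above the limits. Both groups were chosen on genes of the same phases, so the rule set this difference in part. Members with 10 or more UMIs of other S phase genes were 26 of 639 and 17 of 333. Those with 10 or more of other G2 and M phase genes were 4 and 2. Other S phase genes summed to 219 CPM in both libraries' members, against 1128 and 1393 CPM in ribosomal-poor OPCs above the mitosis or replication limit (71 and 43 cells), and other G2 and M phase genes to 99.4 and 72.4 CPM against 2951 and 2493 CPM.

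The ribosomal-poor state was the larger part of the resting OPCs in WT-CNO and the smaller part in DREADD-CNO. It held 75.3% (72.2 to 78.1) of 849 resting OPCs in WT-CNO and 46.2% (42.5 to 49.9) of 721 in DREADD-CNO, a difference of -29.1 percentage points (-33.6 to -24.3) for DREADD-CNO minus WT-CNO. Within female cells the shares were 75.7% and 52.5%, and within male cells 77.2% and 45.2%, so the direction was the same in both sexes. In OPCs above the mitosis or replication limit the shares were 62.8% of 113 and 43.9% of 98, a difference of -19.0 points (-31.5 to -5.46). In committed precursors, here cells with at least 3 Gpr17 and under 3 Pdgfra UMIs per 10000 that met the C1q and Olig limits, they were 18.9% of 705 and 12.9% of 1384, a difference of -5.93 points (-9.41 to -2.63). Microglia were ribosomal-poor in 2 of 402 and 2 of 360 cells (0.498% and 0.556%). The share was thus lower in DREADD-CNO in each of the 3 lineage classes. The microglial share was too near 0 for a fall of that size to be seen. Cells of 1 library are not replicates, so these intervals say nothing of how pools of pups vary.

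The members were shallower than the ribosomal-rich cells and carried more mitochondrial and more Malat1 UMIs. Their median was 8113 UMIs and 3042 genes in WT-CNO and 8409 UMIs and 3101 genes in DREADD-CNO, against 17436 UMIs and 5443.5 genes, and 20545 UMIs and 5795.5 genes, in the rich cells. Thinned to 2000 UMIs, members had a median of 1165 and 1157 genes and rich cells 1311 and 1318. Median mitochondrial shares were 5.71% and 5.81% in members against 3.84% and 3.99% in rich cells. Malat1 took a median of 4.30% and 4.40% of the members' UMIs against 1.82% and 1.99%. The members of the 2 libraries were close to each other on all 4 measures, while the rich cells were deeper in DREADD-CNO.

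**Figure D1:**
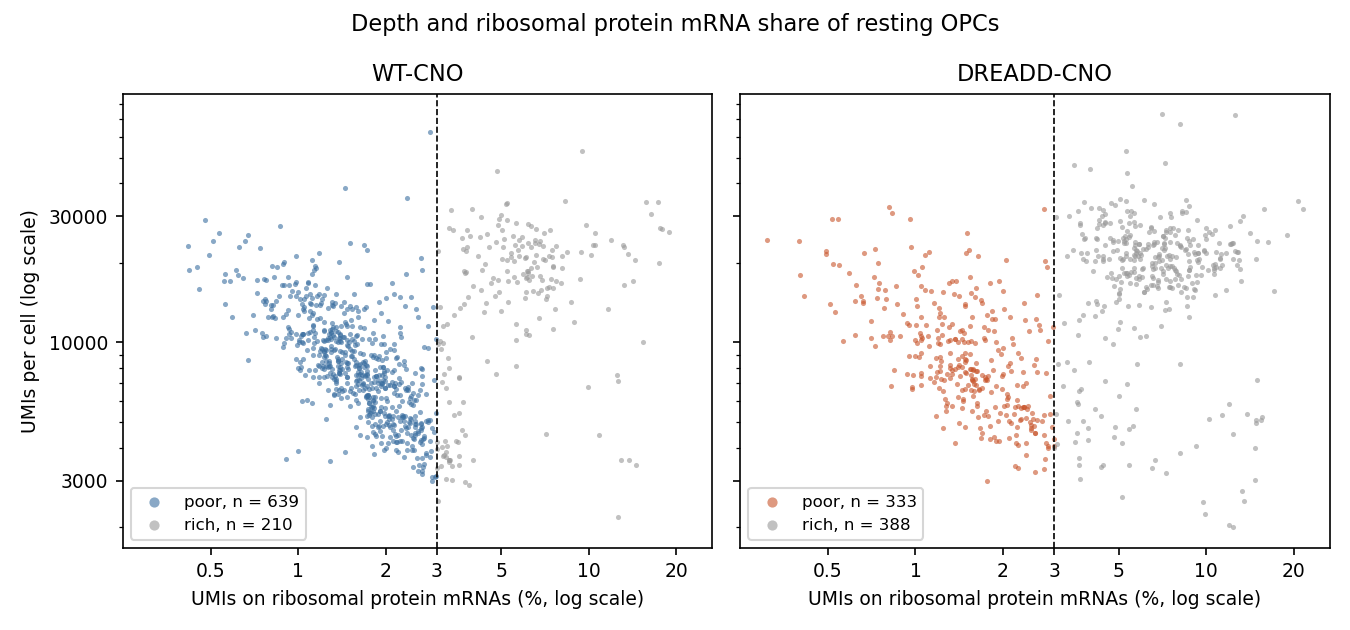
Each point is 1 resting OPC, with the share of its UMIs on ribosomal protein mRNAs on the horizontal axis (percent, log scale) and its total UMIs on the vertical axis (log scale), in WT-CNO (left) and DREADD-CNO (right). The dashed line is the 3% threshold between the 972 ribosomal-poor (coloured) and 598 ribosomal-rich (grey) cells. Among the poor cells, depth was lower at higher shares, and most rich cells lay at higher depth.

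Depth ran opposite to the ribosomal share among the members. Members under 1% had median depths of 15020 UMIs (78 WT-CNO cells) and 14316.5 UMIs (58 DREADD-CNO cells). Members at 2.5% to 3% had 4778 UMIs (67 cells) and 5214 UMIs (34 cells). Just above the threshold, at 3% to 3.5%, the medians were 4251 UMIs (39 cells) and 8342.5 UMIs (14 cells), and at 4% to 6% they were 20875 and 20787 UMIs. In WT-CNO the cells just outside the threshold were therefore as shallow as those just inside. Median mitochondrial shares were 2.69% and 3.36% under 1%, and highest at 7.35% for WT-CNO members at 2% to 2.5% and 7.36% for DREADD-CNO members at 2.5% to 3%. They were 3.28% and 3.33% at 4% to 6% and 4.73% and 4.68% at 8% or more.

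Genes in ribosomal-poor and ribosomal-rich resting OPCs were compared on summed UMIs scaled to CPM. To count as higher or lower, a gene needed 20 CPM and 100 UMIs in the larger sum, a ratio of 1.5 or more and an interval without 1, in both libraries and in the same direction. Because the same cells' UMIs chose the members, what follows describes the 2 states and supports nothing further. Of 6705 genes measured in both libraries, 610 were higher in the poor cells (9.10%) and 1985 lower (29.6%), of which 1906 lie outside the symbol pattern of the rule. With each cell thinned to 2000 UMIs, which leaves far fewer UMIs, 225 were higher and 250 lower. One gene went opposite ways, Enpp6, a choline phosphodiesterase of newly forming oligodendrocytes, with 32.4 against 9.07 CPM in WT-CNO and 22.4 against 36.6 CPM in DREADD-CNO. The single WT-CNO member named above held 126 of the 194 WT-CNO Enpp6 UMIs, and without it Enpp6 stood at 11.5 CPM.

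The lower genes took in nearly all measured genes of the ribosome and the translation list, and the nuclear genes of the respiratory chain. The 80 measured ribosomal protein genes of the rule had poor over rich ratios of 0.158 to 0.336 in WT-CNO (median 0.214) and 0.153 to 0.379 in DREADD-CNO (median 0.196). The 7 ribosomal protein genes that the symbol pattern misses were all lower. Rplp0, a protein of the ribosomal stalk, was at 173 CPM in poor against 869 CPM in rich WT-CNO cells and 164 against 838 CPM in DREADD-CNO cells. Rpsa stood at 235 against 1067 CPM and 225 against 1113 CPM, Rplp1 at 278 against 1206 and 263 against 1277 CPM, and Rplp2 at 163 against 726 and 159 against 735 CPM. Fau, whose product carries a ribosomal protein fused to a ubiquitin-like protein, had ratios of 0.204 and 0.190. The pattern also takes in 11 symbols that are no ribosomal proteins (Rps6k kinases and Rps19bp1), which made up 2.54% and 2.76% of the members' UMIs under it.

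Translation factors and other mRNAs of the same class were lower in 20 of 21 measured genes, with median log2 ratios of -1.63 in both libraries. Eef1a1, the elongation factor that brings tRNAs to the ribosome, was at 463 against 2033 CPM and 460 against 2127 CPM. Tpt1, the translationally controlled tumour protein, was at 328 against 1758 CPM and 300 against 1952 CPM. All 53 nuclear genes of oxidative phosphorylation were lower, with median log2 ratios of -1.82 and -2.04. Ndufa2, a subunit of complex I, was at 55.2 against 274 CPM and 48.0 against 283 CPM, and Atp5e, a subunit of ATP synthase, at 98.1 against 471 CPM and 93.3 against 586 CPM. The 13 mRNAs of the mitochondrial genome went the other way on median (log2 0.47 and 0.35), with 0 lower and 1 higher, mt-Nd6, at 47.7 against 24.4 CPM and 65.3 against 34.3 CPM. So the nuclear and the mitochondrial genes of the same respiratory chain had medians of opposite sign.

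Other short, abundant mRNAs were lower too. Lower were 21 of 22 proteasome genes, 11 of 16 glycolysis genes, 62 of 78 mitochondrial ribosomal protein genes and 30 of 32 genes of the cytoskeleton and other abundant short mRNAs. Profilin Pfn1, which binds actin monomers, had ratios of 0.176 and 0.170, thymosin Tmsb10, another actin monomer binder, 0.191 and 0.148, and cyclophilin A (Ppia), a protein-folding enzyme, 0.208 and 0.196. The metallothioneins Mt1 and Mt3, which bind zinc and copper, had ratios of 0.190 and 0.136, and 0.200 and 0.158. Among the 15 lowest outside the rule's pattern were also Krt1 (0.159 and 0.126), Selenow (0.205 and 0.192), Hist3h2ba (0.191 and 0.201), Mea1 (0.196 and 0.114) and Sec61b, a subunit of the protein translocation channel (0.206 and 0.195). Of the heat shock and chaperone list 6 of 12 were lower, with Hsp90ab1 at 467 against 1272 CPM and 432 against 1193 CPM, while Hsp90b1 of the endoplasmic reticulum, at 439 against 477 CPM and 439 against 460 CPM, did not pass.

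Lists of long neural genes were higher. Of 48 measured synaptic adhesion genes 29 were higher and 0 lower, with median log2 ratios of 0.63 and 0.80 against -0.09 and -0.11 over all 11212 genes. Lsamp, an adhesion protein held by a lipid anchor, was at 16117 against 9894 CPM and 17153 against 9614 CPM. Nlgn1, a neuroligin, was at 5523 against 3449 CPM and 5647 against 3247 CPM, and Cntnap4 at 26.7 against 13.3 CPM and 30.7 against 14.3 CPM. Of 11 kainate, NMDA and delta receptor subunits 7 were higher, among them Grik1 at 571 against 343 CPM and 534 against 284 CPM and Grik2 at 1016 against 603 CPM and 1024 against 615 CPM. Voltage-gated channels were higher in 15 of 28, such as the potassium channel Kcnd2 at 5527 against 3535 CPM and 5231 against 3115 CPM. Growth factor receptors were higher in 6 of 17: Erbb4, a neuregulin receptor, was at 3951 against 2351 CPM and 4385 against 2370 CPM, and Nrg1, which encodes a neuregulin, was among the 15 highest genes at 754 against 362 CPM and 897 against 431 CPM.

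Among the AMPA receptor subunits only Gria4 passed in both libraries, at 887 against 558 CPM and 862 against 511 CPM. Gria2, the subunit that limits calcium entry, was at 1538 against 1029 CPM and 1543 against 1053 CPM, with ratios of 1.495 and 1.47 just under the limit. Gria3 had ratios of 1.26 and 1.31 and Gria1 of 1.35 and 1.68. All 4 subunits were thus above 1 in both libraries. The other highest genes were Rad51b, a DNA repair gene (41.7 against 11.6 CPM and 46.8 against 16.9 CPM), Ctnna3, an alpha-catenin (375 against 158 CPM and 305 against 134 CPM), and Kcnmb2, a subunit of calcium-activated potassium channels (118 against 59.8 CPM and 112 against 42.3 CPM). B9d1, Mms22l, Tes, Cdh12, Rtl4 and Rttn had ratios of 1.95 to 2.67 in the 2 libraries. The antisense transcripts Sorbs2os, Sox5os4 and Nrg3os had ratios of 2.32 to 3.31, and reads from them and from the genes they overlap cannot be told apart unless counting used strand, which is not given in the sources used here.

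Malat1 was at 42018 against 18964 CPM and 42558 against 20890 CPM, ratios of 2.22 and 2.04. With it, Meg3 and Miat, long noncoding RNAs, were higher among 8 measured nuclear ones. Over all long noncoding genes measured, 80 of 182 were higher (44.0%) and 29 lower (15.9%).

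OPC identity genes split in both directions: 6 of 30 were higher and 6 lower, where 9.10% of all genes were higher and 29.6% lower. The higher 6 were Pcdh15, Sox5, Sox6, Tnr, Xylt1 and Tenm2, and the lower ones included Olig1, Olig2, Sox8, Nkx2-2 and C1ql1. Olig1, a transcription factor that sets lineage identity and was used by the rule, was at 517 against 1190 CPM and 503 against 1167 CPM, and Olig2 at 207 against 520 CPM and 184 against 418 CPM. Pcdh15, a protocadherin, was at 4289 against 2781 CPM and 4230 against 2346 CPM. Pdgfra itself, the receptor for the OPC mitogen PDGF-A, was at 1553 against 1290 CPM and 1382 against 1203 CPM, a ratio of 1.20 and 1.15. Of 8 G1 cyclin list genes with enough UMIs for the rule of size, 5 were lower and 1, Cdk6, higher. Over all such genes 29.6% were lower and 9.10% higher. Ccnd1 (cyclin D1) was at 99.9 against 312 CPM and 105 against 317 CPM. The immediate early genes Egr1, Jun and Jund were lower, with ratios of 0.348 and 0.346 for Egr1. Of 12 BMP, Notch and Wnt genes with enough UMIs, 6 were lower and 0 higher. Among the lower ones were the Notch target Hes5 (0.495 and 0.383) and the inhibitor Id2 (0.231 and 0.226). The 12 genes had a median genomic span of 6.05 kb, and 81.9% of all measured protein-coding genes of 3 to 10 kb were lower.

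**Figure D2:**
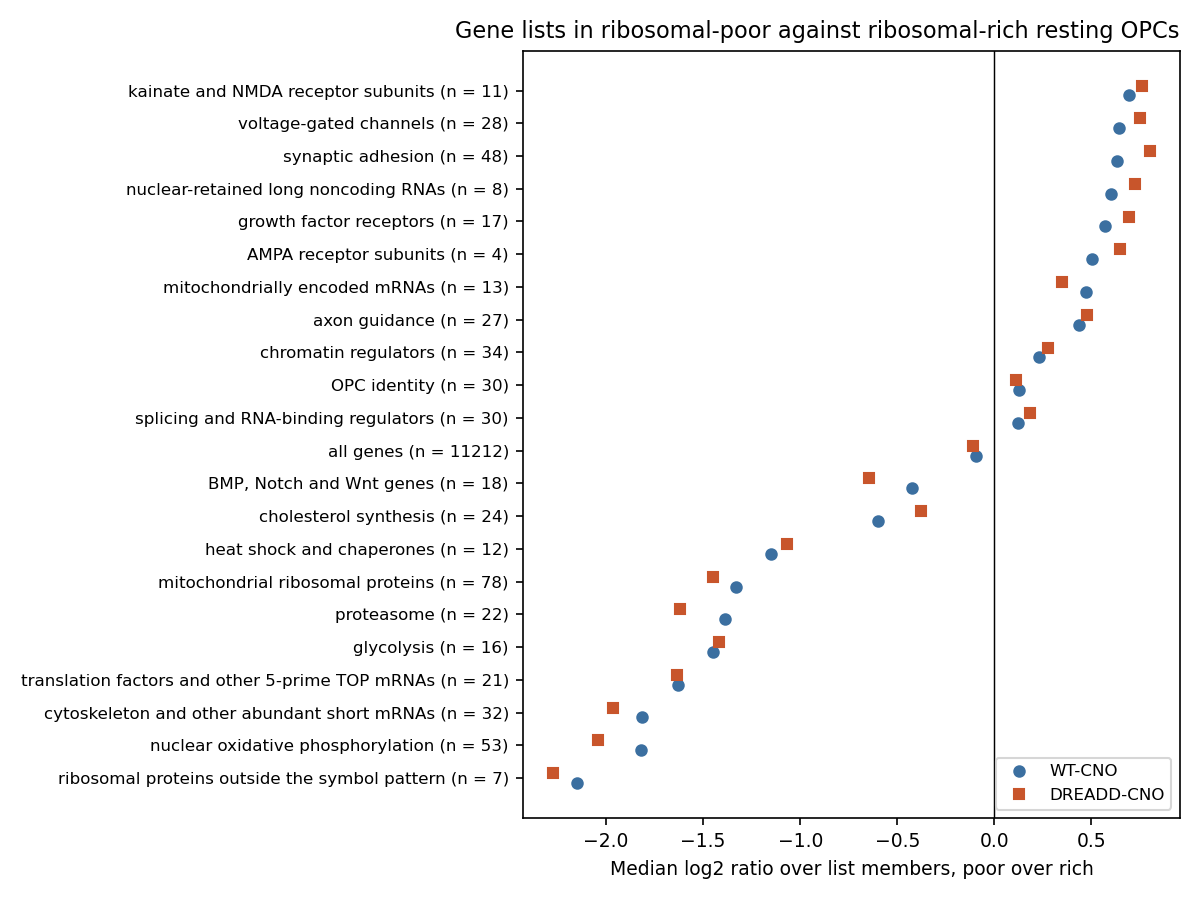
Median log2 ratio of ribosomal-poor over ribosomal-rich resting OPCs for 21 gene lists and for all genes, with the number of measured genes in parentheses, in WT-CNO (circles) and DREADD-CNO (squares). Lists of translation, respiration and other short mRNAs lie between -2.27 and -1.33, and synaptic adhesion, axon guidance, receptor and channel lists between 0.44 and 0.80, with the libraries side by side.

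The ratio followed the genomic span of the gene. Over 6427 protein-coding genes outside the rule's pattern and the mitochondrial genome, the 225 genes under 3 kb had median log2 ratios of -1.71 (WT-CNO) and -1.85 (DREADD-CNO). It was -1.35 and -1.45 at 3 to 10 kb, -0.61 and -0.63 at 10 to 30 kb, 0.08 in both libraries at 30 to 100 kb, 0.43 and 0.50 at 100 to 300 kb and 0.63 and 0.74 for the 441 genes of 300 kb or more. The order was the same in both libraries. Of those 441 genes 244 were higher (55.3%) and 0 lower, and of the 225 shortest 216 were lower (96.0%) and 1 higher. The median span of protein-coding genes was 279 kb for those higher and 10.3 kb for those lower. Exceptions under 10 kb were S100a2, a calcium-binding protein gene (81.6 against 52.4 CPM and 82.9 against 45.6 CPM), and B9d1 (ratios of 2.56 and 2.49). Of the genes of 100 kb or more 11 were lower, among them Hmgb1, a chromatin protein, at 188 against 677 CPM and 156 against 695 CPM. Hmgb1 and S100a2 are named here after their values were seen.

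Against the median of genes of like span, a comparison chosen after the data were seen, several lists kept a distance and others did not. Translation factors and related mRNAs stood at -0.85 and -0.86 below their span group, the 7 ribosomal protein genes outside the pattern at -0.76 and -0.73, nuclear oxidative phosphorylation at -0.48 and -0.58 and the proteasome at -0.45 and -0.52. Synaptic adhesion stood at 0.06 and 0.10, kainate and NMDA receptors at 0.10 and 0.16, AMPA subunits at -0.03 and 0.01, and chromatin regulators at -0.02 and -0.00. The BMP, Notch and Wnt list stood at 0.03 and 0.02, the 3 immediate early genes at 0.07 and -0.07, and heat shock and chaperones at -0.04 and 0.03. So the medians of the long neural lists and of these 3 lists lay near those of other genes of their span, while the translation lists lay below theirs. In both libraries 29 synaptic adhesion genes lay above and 5 below their span median. These counts were 18 and 5 for voltage-gated channels, 7 and 0 for kainate and NMDA receptors and 11 and 3 for growth factor receptors. They were 2 and 2 for AMPA subunits and 5 and 7 for axon guidance, against 2674 and 2674 over all genes. The top span group has no upper limit, and the adhesion genes had a median span of 755 kb.

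**Figure D3:**
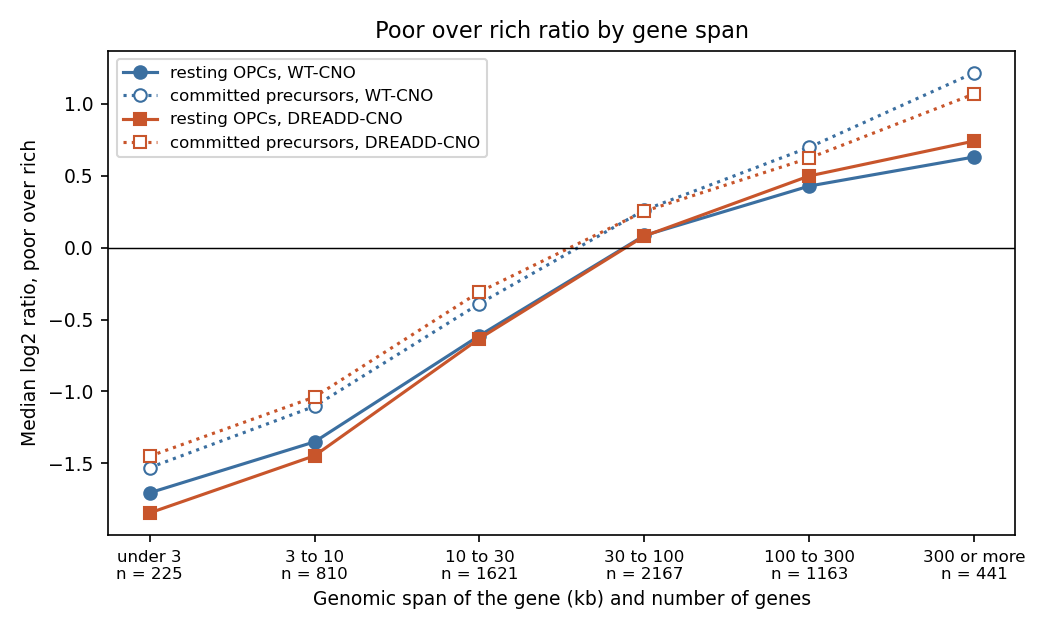
Median log2 ratio of ribosomal-poor over ribosomal-rich cells for protein-coding genes in 6 groups of genomic span (kb, with the number of genes), in resting OPCs (filled, solid lines) and committed precursors (open, dotted lines) of WT-CNO and DREADD-CNO. In resting OPCs it ran from -1.71 and -1.85 under 3 kb to 0.63 and 0.74 at 300 kb or more, and in committed precursors from -1.53 and -1.45 to 1.22 and 1.07.

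Per cell, without scaling to depth, both directions were below 1. The 610 higher genes had median ratios of 0.918 and 0.887 in UMIs per cell, and 129 and 100 of them were above 1. The 1985 lower genes had median ratios of 0.223 and 0.191, with 0 above 1 in either library. In UMIs per cell, a member thus held nearly as many molecules of the higher genes as a rich cell and about 5 times fewer of the lower ones.

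The same split was present in other lineage cells. Committed precursors, compared in the same way, had 884 higher and 1737 lower genes. Of the 610 genes higher in resting OPCs 406 were measured there, 327 were higher and 0 lower, which is 53.6% of the OPC list and 37.0% of the precursor list. Of the 1985 lower genes 1849 were measured, 1429 were lower and 1 higher, 72.0% and 82.3% of the 2 lists. In OPCs above the mitosis or replication limit, all 268 higher and all 922 lower genes with enough UMIs had the same sign in both libraries. These cells share libraries, and their split used the same 3% threshold. Among the 1985 lower genes are 79 symbols of the rule's ribosomal pattern, whose direction the threshold set in part. Shares called over all genes measured in these other cells are not given here, so the overlaps have no base rate.

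Along the ribosomal share the members graded into the rich cells. Nuclear oxidative phosphorylation genes took 0.250% and 0.238% of UMIs in members under 1%, 0.730% and 0.743% at 2.5% to 3%, 0.813% and 0.883% just above the threshold and 2.12% in both libraries at 8% or more. Genes of 300 kb or more took 37.2% and 38.3% of UMIs in members under 1%, 27.2% and 28.8% at 2.5% to 3%, 28.3% and 28.0% just above and 14.3% and 14.2% at 8% or more. Neither measure stepped at 3%, and the members differed among themselves by a factor of about 3 in the respiratory share.

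**Figure D4:**
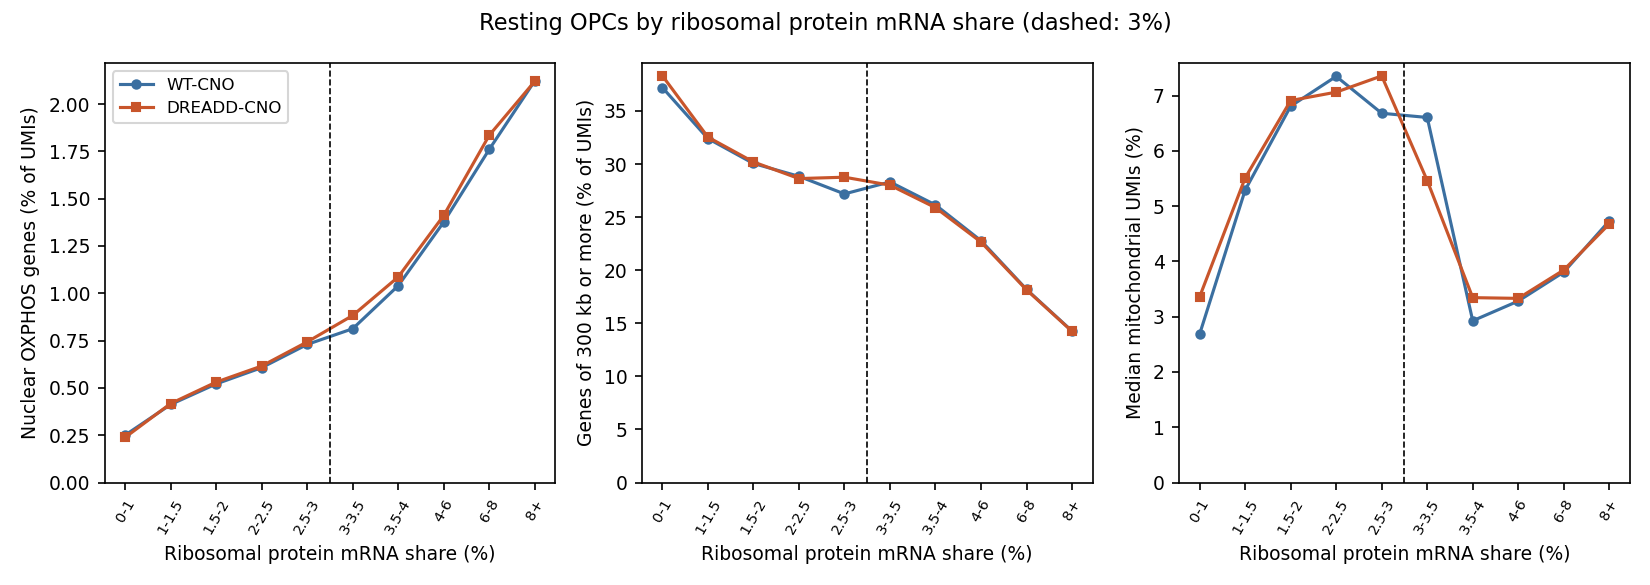
Resting OPCs in 10 groups of ribosomal protein mRNA share (horizontal axis, percent), with the share of UMIs on nuclear oxidative phosphorylation (OXPHOS) genes, the share on genes of 300 kb or more and the median mitochondrial share, in WT-CNO (circles) and DREADD-CNO (squares). The dashed line marks 3%: the first rises from 0.250% and 0.238% to 2.12%, the second falls from 37.2% and 38.3% to 14.3% and 14.2%, and the third is highest at 2% to 3%.

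Some genes varied among the members far more than others. Over 3364 genes with at least 50 CPM in both libraries, the dispersion beyond counting error (variance over the squared mean) had a median of 0.288 and 0.279. Among lineage markers, Lhfpl3 had 0.0874 and 0.0755, Cspg4 0.154 and 0.159, Tnr 0.342 and 0.208, and Vcan, a proteoglycan, 0.298 and 0.338, on both sides of that median. Pdgfra and Olig2, limited by the rule, had 0.143 and 0.118, and 0.221 and 0.376. Tenm2 had 1.11 and 1.03. Among the 15 most dispersed genes, Kctd8 (9.40 and 6.93), an auxiliary subunit of GABA-B receptors, had a UMI in 22.4% and 22.2% of members. Cntnap2 (3.77 and 6.45), a contactin-associated adhesion protein, was found in 29.4% and 28.8%, and Kcnip4 (3.09 and 5.29), a potassium channel interacting protein, in 38.3% and 41.7%. Galntl6, Cacnb2, Gabrg3, Kcnc2, Dach2, Lypd6, Frmpd4, Olfm3, Kcnmb2 and 9630013A20Rik were the others. For Kcnip4 the highest single cell held 70 UMIs in WT-CNO and 133 in DREADD-CNO. Microglia held Kctd8 at 8.58 and 2.27 CPM, against 91.1 and 90.9 CPM in members.

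The top dispersions, of Nkain2 (227 and 10.4) and Frmd4a (149 and 7.04), rested in WT-CNO on the single member named above. It held 393 of 570 Nkain2 UMIs and 901 of 1609 Frmd4a UMIs. The same cell held 84 of the 413 WT-CNO UMIs of 9630013A20Rik and 49 of the 413 of Dach2. Their dispersions were 18.6 and 7.93 in WT-CNO, against 3.58 and 3.13 in DREADD-CNO. Frmd4a and Nkain2 were high in ribosomal-poor committed precursors, where Frmd4a was at 2772 and 4147 CPM and Nkain2 at 1036 and 1697 CPM. Among the 67 WT-CNO members at 2.5% to 3%, the myelin list summed to 2257 CPM with this cell and 639 CPM without it, and the committed precursor list to 5474 and 2680 CPM.

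Between the libraries the members differed in few genes. Of 6363 genes measured, 24 were higher in DREADD-CNO (0.377%) and 59 lower (0.927%), of which 3 and 2 are sex-linked. Ribosomal-rich resting OPCs had 117 higher genes of 7213 (1.62%) and 31 lower (0.430%). Without the 11 rich and 1 poor cells carrying fibroblast, pericyte or endothelial UMIs, the rich cells had 60 higher and 31 lower. Shared between the states were 8 higher genes (33.3% of those of the poor and 6.84% of those of the rich cells) and 4 lower (6.78% and 12.9%). The 100 UMI minimum equals 16.7 CPM in the WT-CNO and 29.8 CPM in the DREADD-CNO members, which lets a gene pass as lower at a smaller level than as higher. At 50 CPM, where this does not act, 11 were higher and 11 lower. Within female cells 13 were higher and 222 lower, and within male cells 112 and 6, at unequal depth, since female cells were 537 and 95 and male cells 71 and 203. The balance of the directions therefore did not hold within the sexes.

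Ttr, the thyroid hormone carrier made by choroid plexus, was at 42.3 CPM in DREADD-CNO members and had 0 UMIs in WT-CNO members, which makes it at least 84.6-fold higher at a floor of 3 UMIs per library. Microglia had 31.4 and 0.572 CPM of Ttr, so its level in members was near that in a cell type that should lack it. Ptgds, prostaglandin D synthase, was at 50.4 against 4.17 CPM, but 1 DREADD-CNO member held 132 of its 169 UMIs, and without that cell's Ptgds UMIs it stood at 11.03 CPM. That cell, of 8598 UMIs, also held 11 fibroblast, pericyte and endothelial UMIs. The Ttr level in DREADD-CNO members was thus near that in microglia, and most Ptgds UMIs of DREADD-CNO rested on 1 cell. A Ptgds UMI was found in 10.5% of DREADD-CNO and 3.60% of WT-CNO members. Whether the Ttr UMIs and the rest of the Ptgds UMIs were background was not tested.

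Higher in DREADD-CNO were also Rerg, a Ras-related gene (30.1 against 13.8 CPM), Hs3st5, a heparan sulfate sulfotransferase (77.5 against 40.9 CPM), and Rasgrf1, a Ras exchange factor that responds to calcium (136 against 83.4 CPM). Agbl4 and Agbl1, deglutamylases of tubulin, were at 195 against 114 CPM and 39.9 against 24.2 CPM. However, 1 DREADD-CNO member held 28 of the 134 Agbl1 UMIs (20.9%). Without that cell's Agbl1 UMIs the gene stood at 31.59 CPM in DREADD-CNO, short of the 1.5-fold rule. The activity-dependent transcription factor Egr1 was at 93.0 against 54.2 CPM, a ratio of 1.72 (1.46 to 2.01), and in rich cells at 269 against 156 CPM. Microglia, at 852 and 796 CPM, held much more Egr1 than members. After thinning, 12.6% of DREADD-CNO and 9.39% of WT-CNO members had an Egr1 UMI (unthinned 37.5% and 30.4%), against 55.0% and 52.2% of microglia. The whole immediate early list was at 13682 CPM in DREADD-CNO and 12641 CPM in WT-CNO microglia, against 305 and 255 CPM in members. The microglial share is therefore no measure of free RNA for Egr1. Whether the members' Egr1 UMIs were their own was not tested. Fos did not pass, at 18.8 against 12.2 CPM.

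The sterol genes leaned one way. Insig1, which holds back sterol synthesis, was at 49.5 against 29.2 CPM. With Sc5d, an enzyme of sterol synthesis, it was among 3 of 24 cholesterol genes that were higher, with 0 lower. Of the 24, 20 had ratios above 1, against 5149 of 10971 over all genes, and the list's median log2 ratio was 0.19 in poor and 0.20 in rich cells, against -0.01 over all genes in both.

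Lower in DREADD-CNO were 2 Notch pathway genes, Hes5 at 86.7 against 132 CPM (0.655, 0.571 to 0.750) and the ligand Dll3 at 36.1 against 56.6 CPM (0.638, 0.514 to 0.787), out of 18 BMP, Notch and Wnt genes. Both were lower in female cells (0.637 for Hes5 and 0.647 for Dll3) and in male cells (0.591 and 0.514). Dll3 was also lower in rich cells, at 37.9 against 62.7 CPM, while Hes5 there, at 226 against 268 CPM, did not pass. Hmga2, a chromatin protein of growing progenitors, was at 17.9 against 36.5 CPM, and its ratio was 0.740 among female but 1.34 among male cells, so it held its direction in 1 sex. Stk33 (13.7 against 29.5 CPM), Tmem117 (15.2 against 30.5 CPM), the repressor of neuronal genes Rest (11.6 against 22.9 CPM), Trmt9b, Fam160b1, the adaptor Nck1, Dpy30 and the tubulin-binding Stmn1 (15.2 against 26.4 CPM) had ratios of 0.464 to 0.577 and were below 1 in both sexes. Frmd4b (11.6 against 24.7 CPM) had 21.6% of its WT-CNO UMIs in 1 cell and a ratio of 2.57 in male cells. Without the sex-linked genes, all 21 higher genes lay above 1 in female and in male cells, and of 57 lower genes 55 lay below 1 in female and 50 in male cells. The genes were picked on sums that include these same cells, so the side of 1 was set in part beforehand. A change of 1.5-fold or more was kept by 15 of the 21 in female and 12 in male cells. For the 57 it was kept by 32 and 35.

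**Figure D5:**
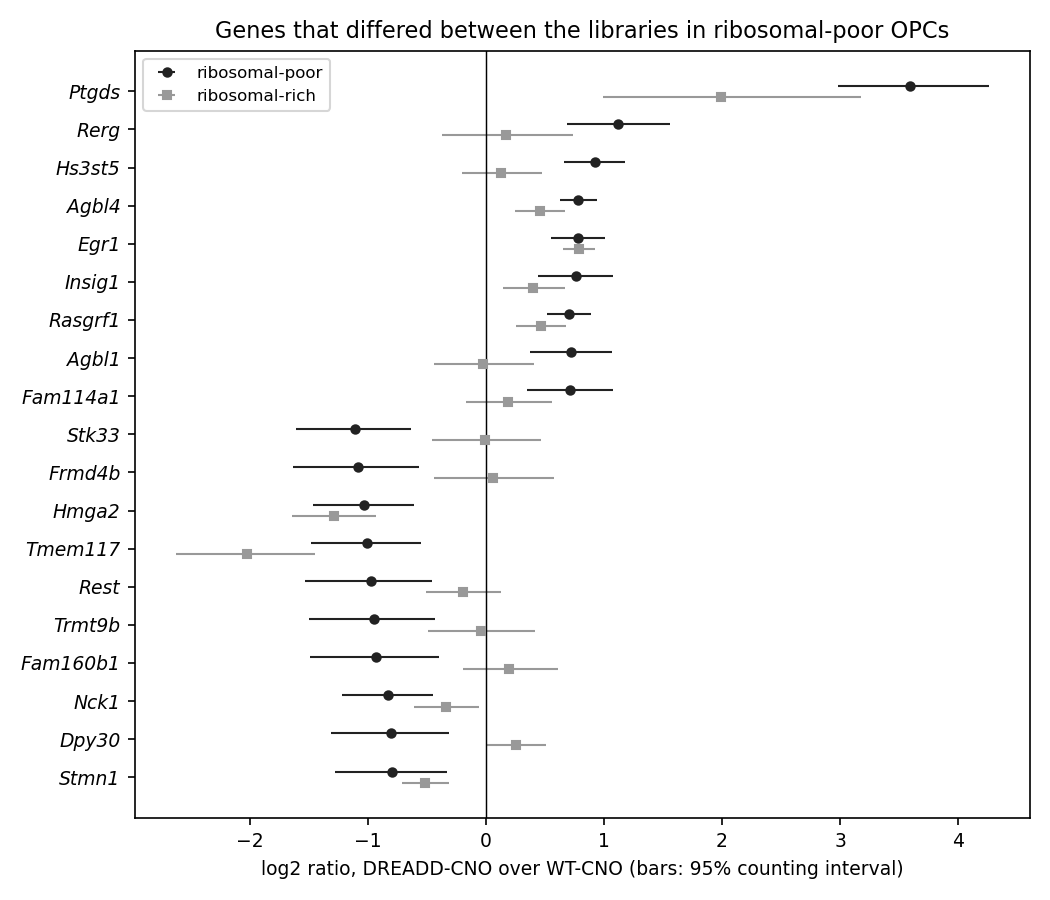
Log2 ratio of DREADD-CNO over WT-CNO for 19 genes that passed the rule of size in ribosomal-poor resting OPCs (black circles), with the ratio in ribosomal-rich resting OPCs beside it (grey squares) and 95% intervals of counting error; Ttr, with 0 UMIs in WT-CNO, is not drawn. Egr1 had ratios of 1.72 and 1.73 in the 2 states and Hmga2 of 0.490 and 0.410, while Rerg had 2.17 in poor and 1.13 in rich cells, a difference that was not tested.

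Among markers that the rule did not use, the ratio of DREADD-CNO over WT-CNO was 0.985 for Lhfpl3 (0.970 to 0.999), 0.995 for Cspg4 (0.938 to 1.05), 1.01 for Malat1 and 0.792 for Tenm2 (0.743 to 0.843). Tenm2 was thus lower in DREADD-CNO beyond counting error, though short of the 1.5-fold rule. Pdgfra, which the rule limits in both libraries, had 0.889 (0.858 to 0.921). The AMPA subunits, named in the title of the study, had 0.933 (0.836 to 1.04) for Gria1, 1.00 (0.970 to 1.04) for Gria2, 0.991 (0.940 to 1.04) for Gria3 and 0.971 (0.928 to 1.02) for Gria4. Of 53 nuclear oxidative phosphorylation and 48 synaptic adhesion genes 0 passed between the libraries, where 0.377% of all genes were higher and 0.927% lower, and counts of 0 are near those shares. Of the cytoskeleton and short mRNA list 1 of 32 was lower and of the mitochondrial ribosomal proteins 1 of 78 higher.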

How the data were processed

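Single Cell 3' v3 libraries of dissociated cortex and corpus callosum were sequenced for 1 pool of pups in each group. The deposited matrices hold raw UMI counts, for which the submitters' processing notes name Cell Ranger 7.1.0. Genome build, intron counting and strand use: not given in the sources used here. Sums over the cells of each class were divided by their total UMIs (CPM). No doublet caller was run, and only the C1q limit acts on mixed cells. The size rule was tried on simulated sums that held counting error only. Variation among cells, pups and libraries was left out of them. Shares have Clopper-Pearson, differences Newcombe, and ratios exact binomial 95% intervals. Log2 ratios have 1 CPM added; list genes had a mean of at least 5 CPM over the compared sums. Named genes were the 15 highest and 15 lowest between states (smaller change of the 2 libraries) and the 10 highest and 10 lowest between libraries, without Gm, Rik, sex-linked, haemoglobin and rule genes, the 15 most dispersed, and the most abundant and most changed of each list; not every gene the rule takes is printed. Members, lists and comparisons were chosen with earlier results of these data known. Gene spans came from GENCODE M21 on GRCm38, matched by gene identifier. Python 3.11.15, numpy 2.4.6, scipy 1.17.1, pandas 2.3.3 and edgeR 4.0.16 (R 4.3.3, for scaling factors) were used. Alternatives changed thresholds, filters, scaling, depth and sex, and those without the single WT-CNO member or without cells carrying vascular and fibroblast UMIs were added after seeing the data. Some genes of the lists are not reported here.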

Additional observations from a re-analysis of the deposited data

Results flagged for a closer look

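Among genes called in both states between the libraries, 2 had ratios of DREADD-CNO over WT-CNO on opposite sides of 1. Frmd4a was at 0.656 in ribosomal-poor and 2.58 in ribosomal-rich resting OPCs, and Nkain2 at 0.605 and 2.30. The difference between the states was not tested. Without the single WT-CNO member that held 901 Frmd4a and 393 Nkain2 UMIs, the ratios in poor cells were 1.48 (1.32 to 1.65) and 1.93 (1.56 to 2.38), above 1 as in rich cells.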

How the results depend on the processing

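With 1 library per group, no setting carries a test, and depth limits the rule to genes near 20 CPM or more. No paired analysis was possible because each group is 1 library and no result comes from a test. Shares of ribosomal-poor cells were 54.5% and 34.4% with a threshold of 2%, 82.9% and 52.3% with 4%, 63.0% and 32.3% with at most 5% mitochondrial UMIs, and 52.5% in female DREADD-CNO cells; DREADD-CNO was lower in each. Genes higher and lower in poor cells numbered 225 and 250 after thinning to 2000 UMIs, 976 and 3003 with no CPM minimum, 399 and 1299 in female and 176 and 157 in male cells; higher ones numbered 326 at 2%, 401 with totals without ribosomal and mitochondrial genes, and 42 at a ratio of 2. Between libraries, higher and lower genes numbered 2 and 38 thinned, 230 and 288 with no CPM minimum, 11 and 11 at 50 CPM, 6 and 6 at a ratio of 2, 47 and 37 at 4%, 13 and 222 in female and 112 and 6 in male cells. Without the single WT-CNO member they numbered 30 and 53. Which direction had more genes between libraries thus changed with the setting; the cause was not tested, beyond fewer genes being measured at a higher minimum. Frmd4a had ratios of DREADD-CNO over WT-CNO of 1.35 at 2%, 1.33 with the corrected ribosomal symbols, 1.53 without the deepest 5% of members, 1.03 in female and 2.52 in male cells, 1.49 thinned and 1.48 without the single member; Nkain2 had 2.00, 1.89, 1.97, 1.69, 1.755, 1.72 and 1.93. Enpp6 had poor over rich ratios in WT-CNO of 0.303 at 2%, 0.253 with the corrected symbols and 0.680 in male cells, and in male DREADD-CNO cells 1.78. In male cells Frmd4b had 2.57 and Hmga2 1.34.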
